A study of Mus musculus with 12 samples.

Results

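The 40 genes described here encode the proteins of synaptic vesicles and of transmitter release, and were taken from the 23238 gene symbols of the count files by their symbols. All 40 were found and all 40 passed the filter on low counts, among 15036 genes tested. Messenger RNA was counted in dorsal root ganglia of lumbar levels 3 to 5 from C57BL/6 mice at postnatal week 8, in 4 groups of 3 libraries: females and males after sciatic nerve injury (SNI), and females and males after a sham operation. All mice were of the same strain and age, and the labels name no transgene, no drug and no pooling of animals. Neither the kind of nerve lesion nor the time between operation and dissection is given in the labels. The ganglia hold the cell bodies of sensory neurons and not their terminals, so these values describe transcripts in and around the cell bodies.

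Release of transmitter from a nerve terminal begins with vesicles that are filled by transporters, carried to the membrane by Rab3 proteins and held at the active zone by RIM and Munc13 proteins. SNARE proteins on the vesicle (the VAMPs) and on the target membrane (syntaxin and SNAP-25) then pull both membranes together, complexins and Munc18-related proteins control the assembled complex, and synaptotagmins trigger fusion when calcium enters. Sensory neurons of the dorsal root ganglion release glutamate and peptides from terminals in the spinal cord, and the transcripts of this machinery are made in the ganglion.

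The labels of injury and tissue were compared with marker genes, and the labels of sex were not checked against any gene. The total count lay between 12476606 and 15520746 per library, and levels are given as CPM, counts scaled to a common library total. On the raw totals, before the library factors described below, 3 counts corresponded to 0.193 to 0.240 CPM. Atf3, a stress-response factor switched on when sensory axons are cut, stood at 275 to 361 CPM in the 6 SNI libraries and 43.6 to 56.7 CPM in the 6 sham libraries. All 8 listed markers of injured sensory neurons rose. The 12 pan-neuronal markers summed to 21268 to 30183 CPM per library, whereas the 10 markers of central neurons, oligodendrocytes and astrocytes summed to at most 8.41 CPM, with Slc32a1, Mnx1, Opalin and Neurod6 at 0 in all libraries. Nothing in the labels says that replicates came from separate animals. The p-values therefore reflect the spread among these libraries only, and that spread may be technical.

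Male SNI replicate 2 and Female sham replicate 2 stood apart from the other 10 libraries. On the first principal component of log2(CPM + 1) over genes with a mean of at least 5 CPM, which held 45.7% of the variance, they lay at 68.7 and 35.0, and the others lay between -23.7 and 1.49. The second component held 19.4% and separated SNI libraries (9.77 to 19.4) from sham libraries (-18.7 to -14.4). Many of the vesicle genes shared in this: 28 of 40 were above both other Male SNI libraries in Male SNI replicate 2, 25 of 40 were above both other Female sham libraries in Female sham replicate 2, and 22 did both. Snap25, Snap91, Unc13a, Nsf, Rab3b and Syngr3 were instead below both other libraries of the group in both. The pan-neuronal sum was 30183 CPM in Male SNI replicate 2 and 30013 CPM in Female sham replicate 2, against 21268 to 26260 CPM in the other libraries. What sets these libraries apart was not tested, and the log2 change of each gene averaged over the sexes is given with all 12 libraries and without these 2. The 2 were picked from these same counts, in which many vesicle genes differed from the other libraries of the group. Calls and adjusted p-values without them are therefore no independent support for those with all 12.

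**Figure D1:**
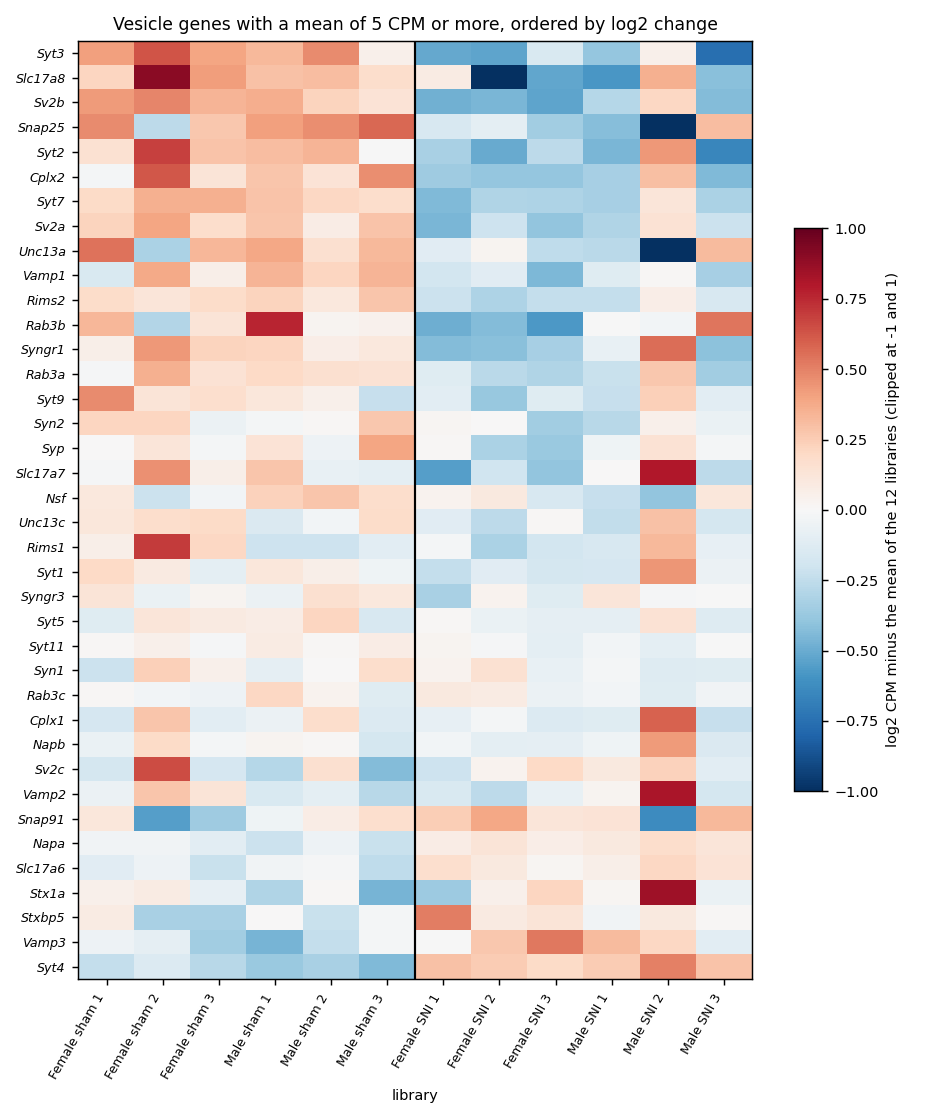
Colour shows the log2 CPM of each vesicle gene in each of the 12 libraries, minus that gene's mean over all libraries, clipped at -1 and 1. Rows are the 38 genes with a mean of at least 5 CPM, ordered by log2 change after injury, and columns are the sham and then the SNI libraries. Male SNI replicate 2 and Female sham replicate 2 differ in many rows from the other libraries of their groups.

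After injury, averaged over the sexes, 1 of the 40 genes rose (Syt4) and 7 fell (Syt3, Syt7, Sv2a, Sv2b, Vamp1, Cplx2 and Rims2). The remaining 32 did not pass the test. These 8 of 40 were called by edgeR's quasi-likelihood test at a Benjamini-Hochberg adjusted p below 0.05, beside 6.52% of all genes tested, of which 3.78% were called higher and 2.73% lower. All genes tested include many of low count, whereas 38 of the 40 had a mean of at least 5 CPM. In a fit of the 10861 genes at that level 8.97% were called, 4.98% higher and 3.99% lower. The median log2 change of the 40 genes was -0.15 and that of all genes tested was 0.00. Of the 40 changes 13 were positive and 27 negative. The falls lay between 1.28-fold for Rims2 and 1.67-fold for Syt3. Without the 2 libraries that stood apart, 17 of 40 genes (42.5%) were called, 3 higher and 14 lower, against 12.1% of all genes tested, 6.69% higher and 5.40% lower. The 8 genes called with all libraries were among these 17. Leaving out single libraries gave 4 to 13 genes called lower. The 13 came without Male SNI replicate 2, where 5.30% of all genes tested were called lower and 11.5% in either direction. The count of genes called lower moved by over 1.5 times also without replicate 2 or 3 of Female SNI, replicate 3 of Female sham, replicate 1 of Male SNI, or replicate 1 or 3 of Male sham, each of which gave 4. In these fits the share of all genes tested that was called lower was 1.51% to 2.04%, also below the 2.73% with all libraries.

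**Figure D2:**
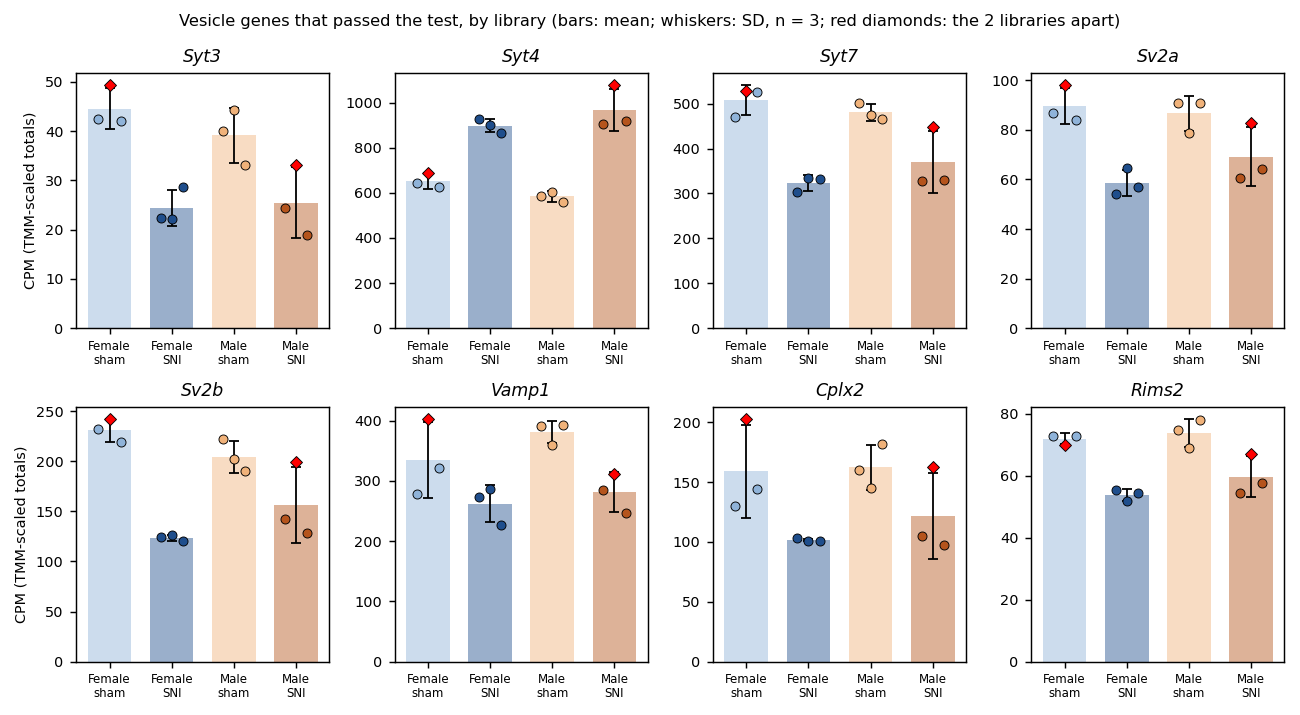
Each panel shows the CPM of a called gene in every library (points) by group, with the mean (bars) and SD (whiskers) of 3 libraries and the 2 libraries that stood apart as red diamonds. Syt4 is higher in the 6 SNI libraries than in the 6 sham libraries, and the other 7 genes are lower on average in the SNI groups.

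Genes of bulk tissue can fall because there are fewer cells of a type or because each holds less RNA, and these cannot be told apart here. The pan-neuronal sum was 21268 to 22561 CPM for Female SNI, 23113 to 30013 CPM for Female sham, 21689 to 30183 CPM for Male SNI and 24045 to 26260 CPM for Male sham. Of its 12 genes, Gap43 and Elavl3 rose, Nefm and Rbfox3 fell and 8 did not pass the test. The median log2 change of these 12 was -0.09 averaged over the sexes, -0.23 in females and 0.06 in males. That of the 40 vesicle genes was -0.15, -0.25 and -0.07. The sum of 10 macrophage markers was 267 to 454 CPM in the SNI libraries and 119 to 192 CPM in the sham libraries, and 9 of the 10 rose. The 8 skeletal muscle markers summed to 1603 CPM in Male SNI replicate 1 and to 146 to 255 CPM in every other library. Outside Male SNI replicate 1 most of each sum was Pvalb, at 107 to 218 CPM, and no other gene of this list exceeded 18.1 CPM. In Male SNI replicate 1 Pvalb had 219 CPM, whereas the rest of the list had 88.9 to 445 CPM. Pvalb thus did not follow the rest of the list, and sums made mostly of Pvalb are no measure of muscle RNA. None of the 8 was called with all libraries and 6 were called higher without the 2 that stood apart. Neutrophil markers summed to 483 and 457 CPM in replicates 1 and 3 of Male SNI, 151 to 316 CPM in the other SNI libraries and 102 to 212 CPM in sham; S100a8 rose with all libraries, and 4 of the 6 tested were called higher without the 2. The part of these cells in the results below was not tested.

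Sequence before annotated starts of called genes is shown because 7 of the called genes fell. RefSeq promoter windows of GRCm38.p6, the assembly also called mm10, were found for 31 of the 40 genes and for 5 of the 8 called genes. The 4 stretches below are those of Sv2a, Sv2b, Syt3 and Vamp1, written 5′ to 3′ on the gene's strand. Each is the part without exons of the 250 bases before a RefSeq start. For Sv2b it is the most upstream of the starts listed. For Syt3 the only start listed is internal, so its stretch lies within the annotated span of the gene and not before its first base. Capitals mark a GC box (GGGCGG) or a CCAAT box (CCAAT) on either strand.
Sv2a, chr3:96180977-96181150, plus strand: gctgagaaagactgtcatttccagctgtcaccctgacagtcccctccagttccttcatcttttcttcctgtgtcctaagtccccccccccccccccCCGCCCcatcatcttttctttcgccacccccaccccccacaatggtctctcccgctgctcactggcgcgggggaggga
Sv2b, chr7:75309263-75309512, minus strand: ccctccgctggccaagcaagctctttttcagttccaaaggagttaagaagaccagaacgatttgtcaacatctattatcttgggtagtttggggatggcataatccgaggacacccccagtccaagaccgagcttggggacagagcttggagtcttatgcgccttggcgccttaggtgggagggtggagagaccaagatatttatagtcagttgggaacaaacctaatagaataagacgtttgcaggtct
Syt3, chr7:44383876-44384101, plus strand: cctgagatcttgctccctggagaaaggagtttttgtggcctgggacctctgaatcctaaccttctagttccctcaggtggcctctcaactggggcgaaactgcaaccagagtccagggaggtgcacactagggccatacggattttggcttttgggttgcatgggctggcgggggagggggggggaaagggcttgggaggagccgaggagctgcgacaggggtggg
Vamp1, chr6:125215331-125215550, plus strand: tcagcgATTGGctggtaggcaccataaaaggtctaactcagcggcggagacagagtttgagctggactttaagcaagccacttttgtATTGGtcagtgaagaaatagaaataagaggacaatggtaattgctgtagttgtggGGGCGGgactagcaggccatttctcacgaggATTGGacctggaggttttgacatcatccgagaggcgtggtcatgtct

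The Sv2a stretch held 1 GC box and that of Vamp1 held 1 GC box and 3 CCAAT boxes, while those of Sv2b and Syt3 held none of the 5 motifs searched. No window of a called gene held an AP-1 site (TGANTCA, the site of Jun and related factors), a cAMP response element (TGACGTCA) or the left core of the RE1 element (TTCAGCACC), searched on both strands. The AP-1 site was in 2.5% of the 40 windows of vesicle genes, in that of Syt2, and in 6.75% of the 32851 windows of all genes. GC boxes were in 24 of the 40 windows of vesicle genes and 32.7% of all windows, and CCAAT boxes in 22.5% and 33.8%. The cAMP response element and the RE1 core were each in 2.5%, both in the window of Syn1, against 1.55% and 0.301% of all windows. These shares describe letters in the windows and say nothing of factors bound there.

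The group named calcium sensors holds 9 genes, the listed synaptotagmins and Doc2b. It follows the protein family, and not every member senses calcium. Among these 9 genes, Syt4 rose, Syt3 and Syt7 fell and 6 did not pass the test, with a median log2 change of -0.10 (-0.19 without the 2 libraries). Syt4 (chromosome 18) encodes a synaptotagmin of the trans-Golgi network and dense-core vesicles. In the order of replicates 1, 2 and 3, used throughout, Syt4 stood at 926, 901 and 867 CPM in Female SNI, 905, 1077 and 921 CPM in Male SNI, 642, 690 and 625 CPM in Female sham and 587, 606 and 559 CPM in Male sham. Every SNI library was above every sham library, and the highest was Male SNI replicate 2. The rise was 1.51-fold (log2 change 0.60 ± 0.08, SE, edgeR adjusted p = 0.000255), it was 0.58 (adjusted p = 1.69e-06) without the 2 libraries, and Syt4 was called whichever of the 12 libraries was left out.

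Syt7 (chromosome 19, 10388802 to 10453181) encodes a calcium sensor of high affinity that acts in asynchronous release, in refilling of vesicle pools and in lysosome exocytosis. It stood at 304, 334 and 333 CPM in Female SNI, 328, 449 and 331 CPM in Male SNI, 470, 528 and 526 CPM in Female sham and 502, 476 and 465 CPM in Male sham. The SNI and sham libraries did not overlap, and Male SNI replicate 2 came nearest to the sham range. Syt7 fell 1.43-fold (log2 change -0.52 ± 0.09, edgeR adjusted p = 0.00345), and by 0.58 on the log2 scale (adjusted p = 4.76e-06) without the 2 libraries.

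Syt3 (chromosome 7, 44382773 to 44400030) encodes a synaptotagmin found on the plasma membrane and on endosomes. Its level was 22.4, 22.2 and 28.7 CPM in Female SNI, 24.4, 33.1 and 18.9 CPM in Male SNI, 42.5, 49.3 and 42.0 CPM in Female sham and 39.96, 44.3 and 33.1 CPM in Male sham. The highest SNI library, Male SNI replicate 2, and the lowest sham library, Male sham replicate 3, lay at the same rounded value, and all other SNI libraries were below all sham libraries. The fall was 1.67-fold (log2 change -0.74 ± 0.14, edgeR adjusted p = 0.00622) and the log2 change was -0.82 (adjusted p = 0.00013) without the 2 libraries. Syt3 and Syt7 were called in each of the 12 fits that left out a library.

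Of the 6 genes of this group that did not pass, Syt1 encodes the sensor of fast synchronous release. Syt1 stood at 397 to 634 CPM over the SNI libraries (median 424) and 436 to 537 CPM over the sham libraries (median 493). Its ranges overlapped, and its log2 change was -0.10 ± 0.10 with a 95% interval of -0.30 to 0.11, and -0.19 without the 2 libraries. Syt11, a synaptotagmin that binds no calcium and acts in vesicle recycling, stood at 2223 to 2425 CPM after SNI (median 2348) and 2370 to 2531 CPM in sham (median 2441), with overlapping ranges. Its log2 change was -0.07 ± 0.07, with an interval of -0.21 to 0.06, and -0.05 without the 2 libraries.

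Syt2, the fast sensor of many large neurons, stood at 128, 113 and 134 CPM in Female SNI, 117, 217 and 102 CPM in Male SNI, 178, 257 and 196 CPM in Female sham and 199, 203 and 160 CPM in Male sham. Only Male SNI replicate 2, of the 6 SNI libraries, reached into the sham range. With all libraries the log2 change of -0.56 ± 0.17 did not pass the test (edgeR adjusted p = 0.0643), and without the 2 libraries Syt2 fell by 0.67 on the log2 scale (adjusted p = 1.4e-05). Syt9 was likewise called only without Male SNI replicate 2, among single libraries, and had a log2 change of -0.34 (adjusted p = 0.0174) without both and of -0.24 (adjusted p = 0.273) with all.

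Doc2b, a soluble sensor of spontaneous release, had the largest log2 change of the 40 genes, 1.85 ± 0.68, and did not pass (edgeR adjusted p = 0.143). Its counts were 17, 44 and 6 in Female SNI, 4, 17 and 21 in Male SNI, 2, 12 and 6 in Female sham and 1, 5 and 4 in Male sham. The groups overlapped and the estimate rests on these few counts, with an interval of 0.52 to 3.18. Without the 2 libraries the log2 change was 2.14 (adjusted p = 0.0981). Syt5, a vesicle synaptotagmin of the same branch as Syt9, had a log2 change of -0.08 (adjusted p = 0.766), and of -0.09 without the 2.

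Among the 8 genes of vesicle membrane and surface proteins, Sv2a and Sv2b fell and 6 did not pass, with a median of -0.20 (-0.21 without the 2 libraries). Both encode SV2 glycoproteins, which span the vesicle membrane and keep vesicles competent for release. Sv2a is also the binding site of the drug levetiracetam. The third SV2 gene, Sv2c, had a log2 change of 0.05 ± 0.18 (edgeR adjusted p = 0.932), and of 0.18 without the 2 libraries.

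Sv2b (chromosome 7, 75114894 to 75309262) stood at 124, 126 and 120 CPM in Female SNI, 142, 199 and 128 CPM in Male SNI, 232, 242 and 219 CPM in Female sham and 222, 202 and 190 CPM in Male sham. The libraries of females did not overlap, and only Male SNI replicate 2 overlapped with the sham libraries, above Male sham replicate 3. Sv2b fell 1.56-fold (log2 change -0.64 ± 0.10, edgeR adjusted p = 0.00176), and by 0.73 (adjusted p = 7.2e-07) on the log2 scale without the 2 libraries.

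Sv2a (chromosome 3, 96181227 to 96195183) stood at 54.3, 64.7 and 56.8 CPM in Female SNI, 60.6, 82.7 and 64.4 CPM in Male SNI, 86.9, 98.0 and 84.2 CPM in Female sham and 90.7, 78.6 and 90.8 CPM in Male sham. Here too Male SNI replicate 2 was the only SNI library within the sham range, above Male sham replicate 2. The fall was 1.38-fold (log2 change -0.47 ± 0.10, edgeR adjusted p = 0.0117) and the log2 change was -0.50 (adjusted p = 0.00045) without the 2 libraries. Sv2a and Sv2b were called in each of the 12 fits that left out a library.

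The other vesicle membrane genes did not pass with all libraries. Syngr1, which encodes synaptogyrin, a membrane protein with 4 spans, had a log2 change of -0.34 ± 0.14 (edgeR adjusted p = 0.182) with all libraries and fell by 0.45 (adjusted p = 0.000679) without the 2. Its level was 225 CPM in Male SNI replicate 2 and 113 to 145 CPM in the other SNI libraries, against 159 to 206 CPM in sham. Syp (synaptophysin), Syngr3 and the synapsins Syn1 and Syn2, which tether vesicles to one another and to actin, had log2 changes of -0.21 to -0.06, and the SNI and sham ranges overlapped for all 4. Without the 2 libraries these were -0.20, -0.10, 0.01 and -0.21 for Syp, Syngr3, Syn1 and Syn2, so that Syn1 changed sign.

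Of the 6 SNARE genes Vamp1 fell and 5 did not pass, and the median was 0.13 (0.03 without the 2 libraries). Vamp1 (chromosome 6, 125215581 to 125222306) encodes synaptobrevin 1, a SNARE of the vesicle membrane. It stood at 273, 286 and 227 CPM in Female SNI, 285, 312 and 246 CPM in Male SNI, 279, 403 and 322 CPM in Female sham and 391, 360 and 392 CPM in Male sham. Male libraries did not overlap, and in females the lowest sham library lay between SNI libraries. The fall was 1.32-fold (log2 change -0.40 ± 0.10, edgeR adjusted p = 0.0372) and the log2 change was -0.35 (adjusted p = 0.00522) without the 2 libraries. The call remained in only 2 of the 12 fits that left out a library, which lacked replicate 1 of Female sham or replicate 2 of Male SNI, and adjusted p was 0.0587 to 0.114 without any of the other 10.

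Snap25, the SNARE of the plasma membrane that botulinum toxin A cleaves, stood at 337, 353 and 297 CPM in Female SNI, 281, 161 and 468 CPM in Male SNI, 524, 315 and 454 CPM in Female sham and 502, 521 and 562 CPM in Male sham. Male SNI replicate 2 and Female sham replicate 2 were the lowest of their groups, unlike for most vesicle genes, and Male SNI replicate 3 lay above Female sham replicate 3. Its log2 change of -0.59 ± 0.20 did not pass with all libraries (edgeR adjusted p = 0.104). Without the 2 libraries it was -0.53 ± 0.10 (adjusted p = 0.00168), and Snap25 was also called without Male SNI replicate 2 alone (-0.44, adjusted p = 0.0375) or Male SNI replicate 3 alone (-0.82, adjusted p = 0.00451).

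Vamp2 encodes synaptobrevin 2, the form that most central synapses use. In Male SNI replicate 2 it reached 749 CPM, while the other 5 SNI libraries lay at 355 to 432 CPM and the sham libraries at 350 to 514 CPM in sham, and its log2 change was 0.09 ± 0.14 with all libraries and -0.04 without the 2. The difference between Vamp1 and Vamp2 was not tested. Vamp3, the form used for constitutive and endosomal fusion, had a log2 change of 0.41 ± 0.13 (edgeR adjusted p = 0.0943) with all libraries and 0.42 (adjusted p = 0.0552) without the 2. Stx1a, the syntaxin of the plasma membrane, had 0.26 ± 0.16 with all libraries and 0.11 without the 2, and its 91.4 CPM of Male SNI replicate 2 compare with 39.5 to 58.9 CPM of the other SNI libraries. Snap23, the relative of Snap25 found in non-neuronal cells, stood at 2.62 to 6.00 CPM over all libraries, with a log2 change of 0.17 ± 0.26, and 0.15 without the 2.

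Of the 6 regulators of SNARE complexes Cplx2 fell and 5 did not pass, and the median was 0.02 (-0.04 without the 2 libraries). Cplx2 (chromosome 13, 54301964 to 54383923) encodes complexin 2, which clamps the assembled complex and promotes its triggered fusion. Its level was 103, 101 and 101 CPM in Female SNI, 105, 163 and 97.3 CPM in Male SNI, 130, 203 and 144 CPM in Female sham and 160, 145 and 182 CPM in Male sham. Apart from Male SNI replicate 2, which lay within the sham range, all SNI libraries were below all sham libraries. The fall was 1.44-fold (log2 change -0.53 ± 0.14, edgeR adjusted p = 0.0400) and the log2 change was -0.55 (adjusted p = 7.47e-05) without the 2 libraries. As for Vamp1, the call remained without replicate 1 of Female sham or replicate 2 of Male SNI and was lost without any of the other 10, with an adjusted p of 0.0550 to 0.109.

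Cplx1, complexin 1, stood at 751, 785 and 724 CPM in Female SNI, 729, 1199 and 677 CPM in Male SNI, 709, 964 and 740 CPM in Female sham and 762, 898 and 724 CPM in Male sham. The 2 libraries that stood apart were the highest of their groups, and all groups overlapped. Its log2 change was 0.02 ± 0.14 with a 95% interval of -0.25 to 0.28, and -0.05 without the 2 libraries.

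The genes that take used SNARE complexes apart showed small differences. Napb, the neuronal SNAP adaptor of the ATPase NSF, stood at 544 to 808 CPM after SNI (median 572) and 531 to 684 CPM in sham (median 598), with overlapping ranges and a log2 change of 0.02 ± 0.10, or -0.03 without the 2 libraries. Napa, the widely expressed adaptor, stood at 194 to 210 CPM in the 6 SNI libraries and 159 to 181 CPM in the 6 sham libraries. These did not overlap, yet its log2 change of 0.22 ± 0.07 did not pass with all libraries (edgeR adjusted p = 0.0881), and it passed without the 2 (0.22, adjusted p = 0.0404). Nsf itself had a log2 change of -0.17 ± 0.10, and -0.15 without the 2. Stxbp5 (tomosyn), which holds syntaxin and SNAP-25 in complexes that cannot fuse vesicles, had 0.27 ± 0.12 (adjusted p = 0.229), and 0.22 without the 2.

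All 7 genes of docking and priming had negative log2 changes, with a median of -0.32 (-0.37 without the 2 libraries), and Rims2 fell while 6 did not pass. Of 16 other genes of the active zone, docking and priming that were tested, 6 had positive and 10 negative changes. Their median was -0.11 (-0.02 without the 2 libraries). Rims2 (chromosome 15, 39198286 to 39684372) encodes a RIM scaffold of the active zone that binds Rab3 and calcium channels. It stood at 55.4, 51.7 and 54.5 CPM in Female SNI, 54.4, 67.0 and 57.5 CPM in Male SNI, 72.8, 69.8 and 72.9 CPM in Female sham and 74.7, 68.9 and 77.8 CPM in Male sham. The SNI and sham libraries did not overlap, with Male SNI replicate 2 the highest of the SNI libraries. Rims2 fell 1.28-fold (log2 change -0.36 ± 0.09, edgeR adjusted p = 0.0200), and by 0.41 (adjusted p = 0.00211) without the 2 libraries. The call was lost without replicate 2 or 3 of Female SNI, replicate 3 of Female sham, replicate 1 of Male SNI, or replicate 1 or 3 of Male sham, with an adjusted p of 0.0518 to 0.0635.

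Rab3a, the small GTPase that marks vesicles for docking, stood at 492, 442 and 434 CPM in Female SNI, 458, 644 and 419 CPM in Male SNI, 530, 683 and 591 CPM in Female sham and 612, 597 and 589 CPM in Male sham. Without Male SNI replicate 2 all SNI libraries were below all sham libraries. Its log2 change was -0.32 ± 0.11 (edgeR adjusted p = 0.106) with all libraries, and Rab3a fell by 0.37 (adjusted p = 0.000882) without the 2. Its relatives Rab3b and Rab3c had log2 changes of -0.35 ± 0.19 and -0.02 ± 0.08, and of -0.37 and 0.00 without the 2 libraries. Rims1 had -0.15 ± 0.15, and -0.12 without the 2.

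The Munc13 genes Unc13a and Unc13c, whose proteins open syntaxin to prime vesicles, had log2 changes of -0.44 ± 0.20 (edgeR adjusted p = 0.263) and -0.16 ± 0.11. Of Unc13a, 21.5 CPM were counted for Male SNI replicate 2, 39.2 to 58.8 CPM for the other SNI libraries and 38.1 to 69.0 CPM in sham. Unc13a fell without the 2 libraries (-0.39, adjusted p = 0.0269), and Unc13c had -0.24 in that fit. Exons of Unc13a overlap those of Colgalt1 on the opposite strand by 495 bases, and Colgalt1 stood at a mean of 94.0 CPM, so counts of Unc13a are uncertain. Snap91, which encodes the clathrin adaptor AP180 that sizes recycled vesicles, had 0.21 ± 0.15 (adjusted p = 0.528), and 0.27 (adjusted p = 0.0647) without the 2.

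Of the 3 vesicular glutamate transporters none passed with all libraries, and the median log2 change was -0.18 (-0.28 without the 2). Slc17a6 (VGLUT2), found in most nociceptors, stood at 300 to 341 CPM in the SNI libraries and 248 to 293 CPM in the sham libraries. Its groups did not overlap, and its log2 change was 0.23 ± 0.08 (edgeR adjusted p = 0.112) with all libraries and 0.24 (adjusted p = 0.036) without the 2. Slc17a7 (VGLUT1), found in large sensory neurons, stood at 85.2 CPM for Male SNI replicate 2 and 33.4 to 48.9 CPM in the other SNI libraries, against 45.7 to 67.2 CPM in sham, with a log2 change of -0.18 ± 0.17 (adjusted p = 0.666) with all libraries and -0.28 (adjusted p = 0.113) without the 2.

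Slc17a8 (VGLUT3), of touch-sensitive unmyelinated neurons, stood at 6.70, 2.72 and 4.41 CPM in Female SNI, 4.23, 8.07 and 4.73 CPM in Male SNI, 7.35, 11.8 and 8.43 CPM in Female sham and 7.73, 7.81 and 7.13 CPM in Male sham. Only Male SNI replicate 2 of the SNI libraries lay within the sham range. The log2 change was -0.70 ± 0.25 (edgeR adjusted p = 0.122), and -0.76 (adjusted p = 0.0457) without the 2 libraries. The change of Slc17a6 was positive and those of Slc17a7 and Slc17a8 negative in both fits.

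**Figure D3:**
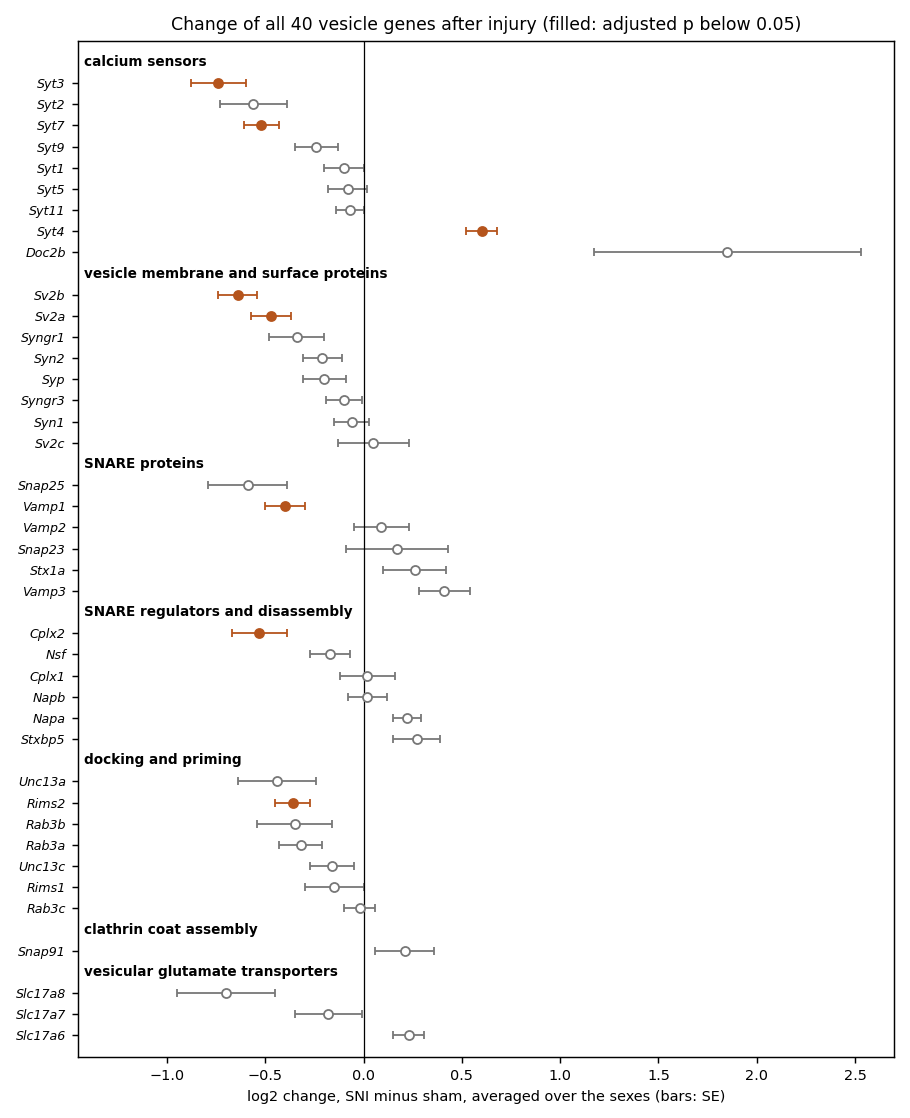
Points show the log2 change after injury averaged over the sexes for each of the 40 genes, with the SE of the model as bars, grouped by role. Filled points passed the test; the 7 docking and priming genes are all below 0, and Syt4 is the only called gene above 0.

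SNI and sham libraries did not overlap at all, 6 against 6, for Syt4, Napa and Slc17a6 above sham and for Syt3, Syt7 and Rims2 below. This is 3 of 40 in each direction, where 2.79% of all genes tested lay above and 2.04% below. With the 2 libraries left out, 3 of 40 lay above (5.41% of all genes tested) and 10 of 40 below (4.93%).

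**Figure D4:**
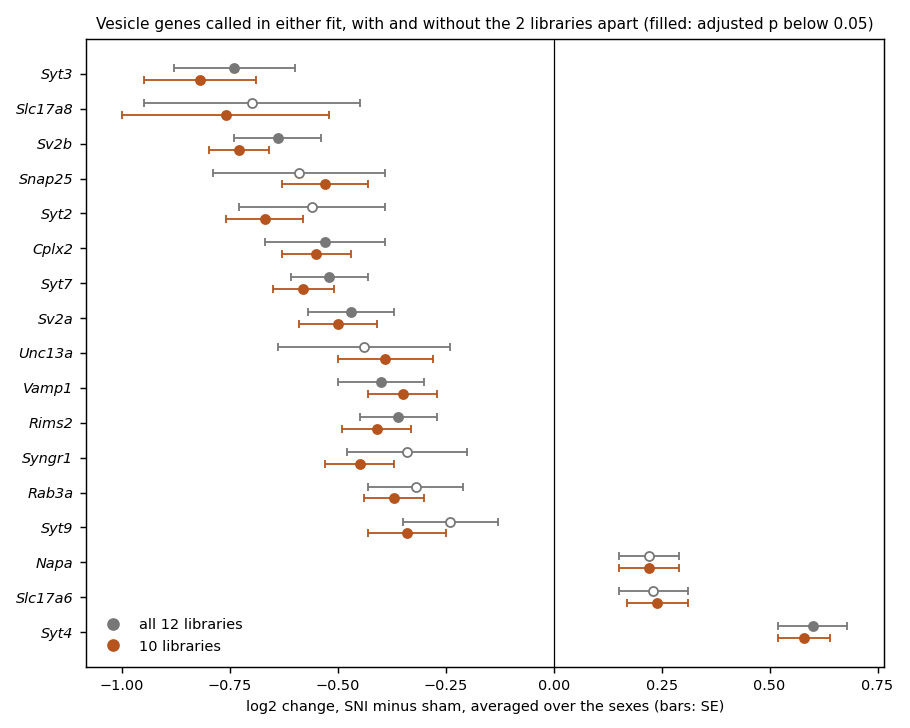
For the 17 genes called in either fit, grey points give the log2 change with all 12 libraries and orange points that without Male SNI replicate 2 and Female sham replicate 2. Bars are SE and filled points passed the test. Changes moved by at most 0.11, and 9 genes, among them Syt2, Snap25 and Rab3a, passed only without the 2 libraries.

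The study compared the sexes, and the change was therefore also fitted within each. In females Syt4 rose (log2 change 0.46 ± 0.11, edgeR adjusted p = 0.0328) and Sv2b (-0.90 ± 0.15, adjusted p = 0.00447), Syt7 (-0.65 ± 0.13, adjusted p = 0.0151), Sv2a (-0.61 ± 0.14, adjusted p = 0.0336) and Syt3 (-0.87 ± 0.20, adjusted p = 0.0357) fell. These are 5 of 40 genes where 2.89% of all genes tested were called, 1.60% higher and 1.29% lower. The median log2 change in females was -0.25. In males only Syt4 was called (0.73 ± 0.11, adjusted p = 0.00212), where 2.13% of all genes tested were called, 1.65% higher and 0.486% lower. The median in males was -0.07.

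Among these calls that of Sv2b in females and that of Syt4 in males remained whichever of the 12 libraries was left out. In females Syt3 and Syt4 remained in 3 of 12 fits, Sv2a in 4 and Syt7 in 7, and each was lost without any of the 3 Female SNI libraries or without Female sham replicate 2 or 3. Syt3, Syt4 and Sv2a were lost also without Female sham replicate 1 or Male sham replicate 1, Syt3 and Syt4 without Male sham replicate 2, Syt4 and Sv2a without Male sham replicate 3, and Syt3 without Male SNI replicate 1. Adjusted p in these fits was 0.0509 to 0.167 for Syt3, 0.0512 to 0.160 for Syt4, 0.0522 to 0.164 for Sv2a and 0.0598 to 0.0915 for Syt7.

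Without the 2 libraries that stood apart, Syt4 rose and 11 of 40 genes fell in females, where 3.32% of all genes tested were called higher and 3.13% lower. In males Syt4 rose and 8 genes fell in that fit (Syt2, Syt3, Syt7, Sv2a, Sv2b, Vamp1, Cplx2 and Rab3a), where 2.88% were called higher and 1.69% lower. In males the log2 change of Sv2b was -0.39 ± 0.15 with all libraries (edgeR adjusted p = 0.235) and -0.59 without the 2 (adjusted p = 0.00143). Syt7 in males was -0.38 ± 0.13 (adjusted p = 0.178) and -0.54 (adjusted p = 0.00168). Leaving out single libraries gave 1 to 11 genes called lower in females, with 11 without Male SNI replicate 2, where 3.73% of all genes tested were called lower. In males it gave 6 without Male SNI replicate 2, where 3.04% of all 15349 genes tested were called and 154 of these were lower. It gave 2 without Male SNI replicate 3 (1.16% of all genes tested were called lower) and 0 without any other.

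Group means show the same values by sex. Syt4 rose from 652 ± 34.1 CPM (SD, n = 3) to 898 ± 29.7 CPM in females and from 584 ± 23.6 CPM to 968 ± 95.1 CPM in males. Sv2b stood at 231 ± 11.4 CPM in Female sham and 123 ± 2.88 CPM in Female SNI, and at 205 ± 16.4 CPM in Male sham and 156 ± 37.6 CPM in Male SNI. Syt7 was at 508 ± 32.7 CPM in Female sham and 324 ± 16.8 CPM in Female SNI, and at 481 ± 19.3 CPM in Male sham and 370 ± 69.1 CPM in Male SNI. The SD of Male SNI was the largest of the 4 groups for all 3 genes.

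**Figure D5:**
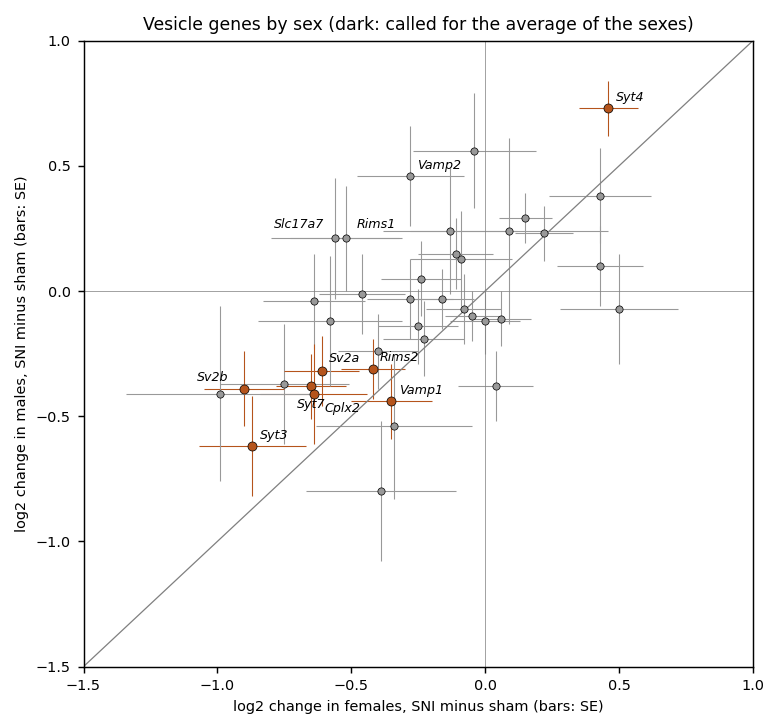
The log2 change after injury in males is plotted against that in females for each gene except Doc2b, fitted to all 12 libraries, with SE bars. Dark points were called for the average of the sexes, and points above the diagonal had a higher log2 change in males. This held for 30 of the 40 genes, among them Doc2b, which is not plotted.

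The difference between the sexes in the change was tested as an interaction, and no gene of all tested was called by edgeR's quasi-likelihood test (0.00%), with 1100 genes (7.32%) at an unadjusted p below 0.05. Of the 40 genes 5 were below that unadjusted level: Sv2b, Syngr1, Vamp2, Rims1 and Slc17a7, with log2 differences of males minus females of 0.51, 0.60, 0.75, 0.73 and 0.77, each at an adjusted p of 0.647. Without the 2 libraries these differences were 0.27, 0.19, 0.31, 0.36 and 0.23. The difference was above 0 for 30 of 40 genes (75.0%, against 50.7% of all genes tested) with all libraries, and for 21 of 40 (52.5%, against 50.3%) without the 2. With all libraries the difference was also above 0 for 11 of the 12 pan-neuronal markers. Their median difference was 0.25, beside 0.22 for the 40 vesicle genes. Change had the same sign in both sexes for 28 of 40 genes (70.0%), against 54.1% of all genes tested. For Syt4 the interaction was 0.27 ± 0.15 and for Syt7 0.27 ± 0.18.

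Between males and females no vesicle gene was called in sham or after injury, where 6 genes of all tested (0.0399%) were called in each. The lowest adjusted p of the 40 genes was 0.938 in sham and 0.881 after injury.

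Further genes of vesicle release were counted from a list of 84, of which 70 were tested. None rose and 5 fell: Rph3a, Rab27b, Pclo, Synpr and Dnm1. The share called, 7.14%, was all in the lower direction, where 2.73% of all genes tested were called lower and 6.52% in either direction. The median log2 change over the 70 was -0.08. Rph3a encodes rabphilin, an effector of Rab3 and Rab27 with C2 domains, and stood at 189 to 296 CPM in the SNI libraries and 336 to 434 CPM in the sham libraries, which did not overlap. It fell 1.71-fold (log2 change -0.77 ± 0.10, edgeR adjusted p = 0.00035), with -0.82 without the 2 libraries. Rab27b, a GTPase of dense-core vesicles, stood at 35.8 to 56.2 CPM after SNI and 62.8 to 84.2 CPM in sham and fell 1.59-fold (-0.67 ± 0.12, adjusted p = 0.00392), with -0.63 without the 2. Pclo, which encodes the active zone scaffold piccolo, fell by 0.58 ± 0.12 on the log2 scale (adjusted p = 0.00728), and by 0.60 without the 2. These 3 genes were called in each of the 12 fits that left out a library.

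Synpr (synaptoporin, a relative of synaptophysin) had a log2 change of -0.41 ± 0.10 (edgeR adjusted p = 0.0273) and remained called in 5 of the 12 fits, those without replicate 2 of either sham group or without any of the 3 Male SNI libraries. Its adjusted p was 0.0577 to 0.0918 without any of the other 7, and its log2 change was -0.36 without the 2 libraries that stood apart. Dnm1 (dynamin 1, which pinches off recycled vesicles) had -0.38 ± 0.11 (adjusted p = 0.0490) and remained only without Male SNI replicate 2, with 0.0674 to 0.135 without any of the other 11. It was also lost with RLE (-0.37, adjusted p = 0.053) or upper quartile (-0.37, adjusted p = 0.0554) library factors, and had -0.42 without the 2 libraries. In that fit 3 of these 70 genes rose and 14 fell, beside 6.69% of all genes tested called higher and 5.40% lower. Leaving out single libraries gave 3 to 12 genes called lower, the 12 without Male SNI replicate 2 (5.30% of all genes tested were called lower) and the 3 without any of the Female SNI libraries or without replicate 1 or 3 of either sham group. In the fits that gave 3, the share of all genes tested that was called lower was 1.51% to 2.06%.

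Some counts are uncertain because exons of another gene lie on the opposite strand and the sources used here do not say whether counting used strand. Syt4 shares 566 bases with Gm26658, Syt7 shares 384 with Gm26859, Sv2b shares 47 with 1500012K07Rik, which stood at 1.69 CPM, and Rab3a shares 29 with Mpv17l2, which stood at 87.4 CPM. Pclo shares 429 bases with Gm26918 and 496 with Gm26954. Doc2b, Syn1, Syn2, Syp and Rab3b also overlap an exon of another gene.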

How the data were processed

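Messenger RNA of 12 ganglion samples was measured with the QuantSeq 3′ kit and single-end reads on a NextSeq 500, per the labels' protocols. The authors deposited unnormalized counts for each gene symbol in a file of its own for each library, and the submitters' processing notes list Bowtie2, bedtools and mm10. The sources used here do not give the treatment of strand, multiply mapped reads or duplicate molecules, so floors cover counting error only. Each file held 23282 rows and 23238 symbols; 44 extra rows of 35 repeated symbols were summed. The ribosomal row Rn45s held 6.14% to 11.2% of the counts.

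Genes passed edgeR's filterByExpr at a minimum count of 10, and TMM factors were 0.914 to 1.07. The 12 libraries entered 1 model of the 4 labelled groups (edgeR 4.0.16 in R 4.3.3, with limma 3.58.1), which share the estimate of the spread. For 6 contrasts two-sided quasi-likelihood tests were run, adjusted by Benjamini-Hochberg over all 15036 tested genes, with calls at an adjusted p below 0.05. CPM use TMM-scaled totals, and SE is that of the model. No pair of replicates agreed within sampling noise (chi-square per gene at least 8.63). The script was tested on simulated data.

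The 40 genes, their roles, the further lists and the tests were chosen with earlier results of these data known. Values per library are given for called genes, the 5 of the others with the highest mean CPM and the 3 with the largest change; Syt2 and other genes named beside these were chosen after their values were seen. At most 12 called genes of the further list are named. Alternatives were RLE and upper quartile factors, DESeq2 1.42.0, limma voom with quality weights, no filter, a mean of at least 5 CPM, no Rn45s, a replicate block and leaving out libraries. Positions and promoter windows came from RefSeq (GRCm38.p6), exon overlaps from GENCODE.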

Additional observations from a re-analysis of the deposited data

How the results depend on the processing

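With RLE or upper quartile factors and without Rn45s, each count of vesicle genes called was within 1.5 times of that reported. Counts are in the order higher, then lower, for injury averaged over the sexes unless said. DESeq2 called 3 and 9 vesicle genes, beside 5.29% and 3.92% of all genes tested (9.21% in all). With quality weights limma voom called 5 and 14, beside 6.82% and 6.54% (13.4% in all, 2008 genes). The filter at a mean of 5 CPM gave 2 higher (4.98%). Without Male SNI replicate 2 and Female sham replicate 2 there were 3 and 14, and 1848 genes called in all. In females DESeq2 called 7 lower, limma 3 higher and 11 lower, no filter 0 higher, and the fit without the 2 libraries 11 lower (3.13% of all genes tested). In males limma called 11 lower and the fit without the 2 libraries 8 lower (1.69% of all genes tested). Shares of all genes within each sex were not counted for DESeq2, limma or no filter, so those counts cannot be read as particular to vesicle genes. Of the further release genes DESeq2 called 1 higher, limma 3 and 13, the filter at 5 CPM 1 higher, and the fit without the 2 libraries 3 and 14. The shares of all genes tested in that last fit were 6.69% higher and 5.40% lower, and those of the other fits are as given above. The cause of these differences was not tested.

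Leaving out each library in turn gave 1 to 2 vesicle genes higher and 4 to 13 lower, 0 to 2 and 1 to 11 in females, 1 to 1 and 0 to 6 in males, 0 to 2 and 3 to 12 of the further genes, and 626 to 1766 genes in all. Cplx1 and Napb, not called in any fit, changed sign: Cplx1 was -0.06 with limma, -0.05 without the 2 libraries and -0.13 to 0.09 over the 12 fits, with negative values without replicate 1 (-0.03) or 3 (-0.01) of Female sham, replicate 2 of Male SNI (-0.13) or replicate 3 of Male sham (-0.01). Napb was -0.04 with limma, -0.03 without the 2 libraries and -0.07 to 0.07 over the 12 fits, negative without replicate 1 of Female sham (-0.01), replicate 2 of Male SNI (-0.07) or replicate 3 of Male sham (-0.01).

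The labels do not say that a replicate number marks a shared animal or day. Deviations from the group means correlated at -0.226 to 0.705 in 18 pairs of same-numbered libraries, 4 of them over 0.1. In 36 pairs of differently numbered libraries they correlated at -0.707 to 0.655, 8 of them over 0.1. The 0.705 was that of Female sham replicate 2 with Male SNI replicate 2, the libraries that stood apart. The numbers were therefore not taken to pair the libraries. With the replicate number as a block 1 vesicle gene was called higher and 8 lower, 936 genes in all and 5 of the further genes lower. With 3 libraries per group, and Doc2b at 1 to 44 counts per library, depth and spread left its log2 change an interval of 0.52 to 3.18.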
